A study of Homo sapiens with 1 sample.

Results

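The miRNAs described here are the mature products of the imprinted DLK1-DIO3 cluster on chromosome 14 (14q32). They were chosen by their names alone: every human miRNA on the array whose number is one of 45 numbers assigned to the cluster, which gave 93 of the 2549 human miRNAs. They were measured on 1 one-colour Agilent miRNA array. Its RNA came from the human colorectal carcinoma line DLD-1, transfected with the empty control vector pLVX-NC. The study set such control cells against cells overexpressing the circular RNA circLONP2, and also depleted that RNA. The arrays of overexpressing and depleted cells were not analysed here, so the values give which cluster miRNAs gave signal in control cells, and no response to circLONP2. With 1 array of 1 condition there was no replicate culture and no test. An SD given beside a brightness is the spread between spots of that array.

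The DLK1-DIO3 domain is one of the large imprinted regions of the human genome. Its miRNA genes, with MEG3, MEG8 and an RNA antisense to RTL1, are transcribed from the chromosome inherited from the mother, whereas the protein-coding genes DLK1, RTL1 and DIO3 are transcribed from the one inherited from the father. The miRNAs are cut from long primary transcripts that hold many hairpins, and each hairpin can yield a mature miRNA from its 5p and its 3p arm. They are known as abundant in placenta, embryo and brain. A mature miRNA recognises its targets mainly through the seed, bases 2 to 8 counted from its 5′ end.

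The mature sequences that the results turn on are given 5′ to 3′ with the seed in capitals, from RefSeq (GRCh38.p14), where all of those printed lie on the plus strand. RefSeq sequences matched 92 of the 93 cluster miRNAs, all but miR-668-3p, and 2248 of the 2549 human miRNAs. The first set holds the miRNAs with the highest signals, which have unrelated seeds.
miR-494-3p, chr14:101029681-101029702: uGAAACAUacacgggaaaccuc
miR-665, chr14:100875075-100875094: aCCAGGAGgcugaggccccu
miR-370-3p, chr14:100911186-100911207: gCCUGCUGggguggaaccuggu
miR-127-3p, chr14:100883035-100883056: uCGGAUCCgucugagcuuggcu
miR-1193, chr14:101030061-101030083: gGGAUGGUagaccggugacgugc
miR-431-3p, chr14:100881069-100881090: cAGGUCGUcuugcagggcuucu
miR-134-5p, chr14:101054694-101054715: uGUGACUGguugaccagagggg
The second set holds close relatives, in which detected and undetected miRNAs can be compared at nearly the same sequence.
miR-1185-1-3p, chr14:101043029-101043050: aUAUACAGggggagacucuuau
miR-1185-2-3p, chr14:101044250-101044271: aUAUACAGggggagacucucau
miR-376a-3p, chr14:101040118-101040138: aUCAUAGAggaaaauccacgu
miR-376b-3p, chr14:101040497-101040518: aUCAUAGAggaaaauccauguu
miR-376c-3p, chr14:101039732-101039752: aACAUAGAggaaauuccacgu
miR-381-3p, chr14:101045968-101045989: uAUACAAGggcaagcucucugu
miR-300, chr14:101041414-101041435: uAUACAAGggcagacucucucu
miR-487b-3p, chr14:101046505-101046526: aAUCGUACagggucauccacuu
miR-487a-3p, chr14:101052494-101052515: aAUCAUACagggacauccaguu
The third set holds the cluster miRNAs with under 30% G and C, none of which was detected.
miR-369-3p, chr14:101065641-101065661: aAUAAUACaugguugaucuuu
miR-655-3p, chr14:101049610-101049631: aUAAUACAugguuaaccucuuu
miR-539-3p, chr14:101047369-101047390: aUCAUACAaggacaauuucuuu
miR-656-3p, chr14:101066766-101066786: aAUAUUAUacagucaaccucu

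Of the 93 cluster miRNAs, 38 were detected and 55 were not. Detection was the scanner software's flag for each miRNA, which on this array equalled having at least 1 probe with a total signal over 3 times its error, for all 2549 human miRNAs. The share was 40.9% in the cluster, against 56.8% of all human miRNAs on the array and 57.4% of the 2456 outside the cluster. Cluster miRNAs are among the earlier named ones. Of the 814 other human miRNAs whose number is no higher than the highest in the cluster, 50.2% were detected. The cluster thus had a lower share than each of these groups, a difference that 1 array does not allow to be tested.

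The lower share did not rest on the flag. A probe on which at least 0.5 of the spots stood well above background was found for 30 cluster miRNAs (32.3%), against 49.9% of all human miRNAs. A probe on which every spot did so was found for 25 (26.9%), against 45.8%. By the weaker criterion of spots positive and significant over background, for at least 0.5 of a probe's spots, the count was 44 (47.3%), against 68.9%. The share was the lower one in the cluster under each criterion.

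The same was seen against the negative controls. A probe brighter than 12.5, the 99th percentile over 1000 negative control spots, was found for 37 cluster miRNAs (39.8%), against 55.9% of all human miRNAs. The detected cluster miRNA that this level left out was miR-323a-5p, and no undetected one was above 12.5. The negative control level was set mostly by 1 of 7 control probes, whose median brightness was 8.62, whereas the medians of the others lay between -3.18 and 2.27. Without that probe the level was 5.58. All 38 detected cluster miRNAs and 4 undetected ones were then above it, miR-485-5p, miR-300, miR-433-5p and miR-410-3p, which makes 42 (45.2%), against 64.7% of all human miRNAs.

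RefSeq places 91 of the 92 matched sequences on the plus strand of chromosome 14. With miR-668-3p, counted by its gene MIR668, 92 of the 93 belong to 52 miRNA genes there, which lie in 2 stretches between DLK1 and DIO3. miR-544b is placed on chromosome 3 instead. It was taken by its number and was detected, with a total signal of 7.78. Without it the count is 37 of 92 (40.2%). The upstream stretch, from MIR770 to MIR370, runs over 58.8 kb, and the downstream stretch, from MIR379 to MIR656, begins 111 kb further on and runs over 44.7 kb. In the upstream stretch 10 of 18 mature miRNAs were detected (55.6%), and in the downstream stretch 27 of 74 (36.5%). The upstream share was thus about that of all human miRNAs on the array, 56.8%, and the downstream share was below it. Detected miRNAs were found along much of both stretches, next to genes with no detected product. The last genes of the downstream stretch, MIR369, MIR410 and MIR656, gave none.

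**Figure D1:**
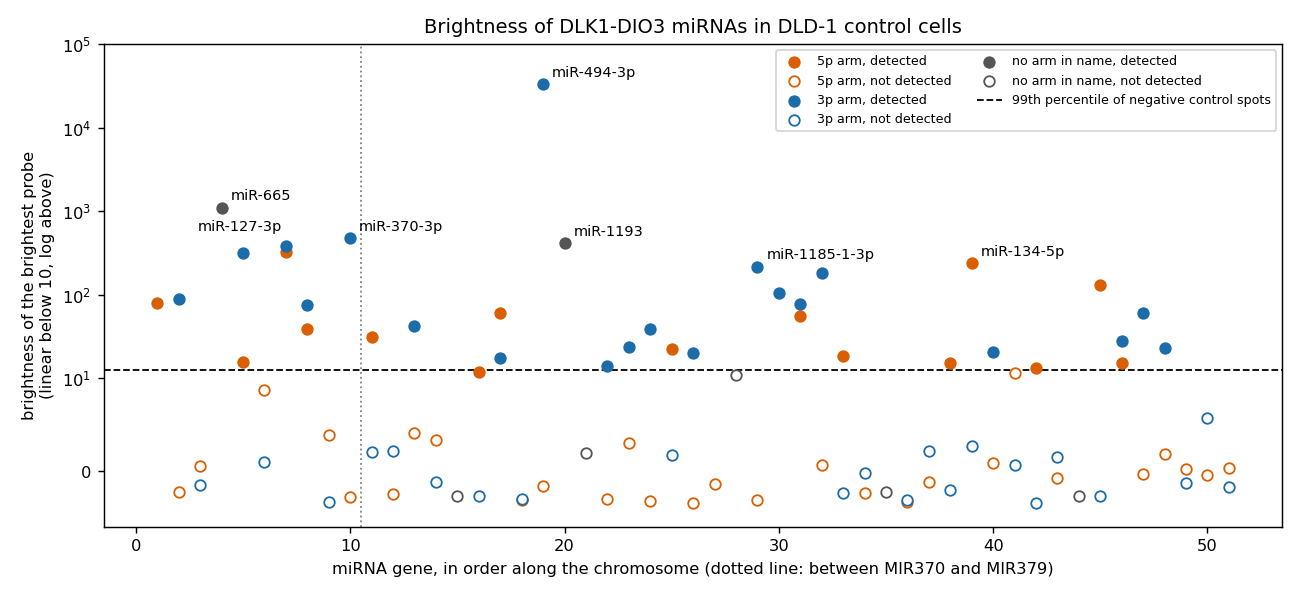
Brightness of the brightest probe of each of the 92 cluster miRNAs on chromosome 14 (vertical axis, linear below 10 and logarithmic above), with the miRNA genes in their order along the chromosome (horizontal axis). Filled circles are detected miRNAs, open circles undetected ones, colours mark the arm, and the dashed line is the negative control level, 12.5. All open circles and 1 filled circle, miR-323a-5p, lie under the dashed line, and miR-494-3p, at 32835, stands far above the other filled circles.

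miR-494-3p, from a hairpin of the downstream stretch, was by far the brightest of the 93. Its 19 spots had a mean brightness of 31638 ± 1888 (SD) and ran from 28649 to 35187. Its probes had mean brightness 32835 and 30308, so the signal did not come from a single probe or spot. Its total signal was 11610 ± 822 and ranked 3 among the 1448 detected human miRNAs. A total signal is the software's sum over those probes of a miRNA that exceed 3 times their error. The error given with it is the software's own. Only 30 human miRNAs had a total signal over 1000, and miR-494-3p was the only cluster miRNA among them. For other human miRNAs whose number is no higher than the highest in the cluster, the highest total signal was 1655. Brightness depends on how well a probe binds as well as on the amount of its miRNA, so this order is one of signals and not of copies in the cell.

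The genes around MIR494 did not share that signal. miR-494-5p, from the other arm of the same hairpin, was not detected, with a mean brightness of -1.69 ± 1.501 (SD, 20 spots). miR-329-3p, from a hairpin just upstream, had a mean brightness of -3.43 ± 1.59 (SD, 20 spots) and was not detected either. The next gene downstream gave miR-1193, with 342.1 ± 128 (SD, 20 spots). miR-494-3p made up 90.5% of the summed total signal of the cluster. The cluster held 6.09% of the summed total signal of all human miRNAs, and 0.579% with miR-494-3p left out.

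The upstream stretch lies in and around MEG3, RTL1 and MEG8. Its detected miRNAs had a median total signal of 31.8, with 4 of 10 over 100, against 290 of all 1448 detected human miRNAs. By interval in RefSeq, miR-770-5p lies in MEG3, 10 mature miRNAs lie in RTL1 (the protein gene to which their own transcript runs antisense) and both arms of miR-370 lie in MEG8. Whether these are exonic or intronic was not determined here, since the gene table gives intervals only.

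Of the 10 mature miRNAs within RTL1, 6 were detected, a share near the 56.8% of all human miRNAs, and they came from 3 of its 5 hairpins. miR-127-3p, known as a miRNA that is often silent in cancer lines and can return after DNA demethylation, had a total signal of 134.2 ± 9.56 and a mean brightness of 364 ± 27.2 (SD, 19 spots). Its probes had mean brightness 383 and 347, and its spots were all well above background. The 5p arm of the same hairpin, miR-127-5p, had a total signal of 38.1 ± 3.09. miR-431-3p had 110 ± 5.60 and a mean brightness of 300 ± 38.8 (SD, 19 spots), and its partner miR-431-5p had 2.91 ± 0.751. For both hairpins the 3p arm gave the higher signal, by different probes for each arm.

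miR-432-5p had a total signal of 13.3 ± 1.36 and its spots were all well above background. Its partner miR-432-3p had 6.85 ± 0.767, carried by 1 of its 4 probes. The remaining hairpins within RTL1, those of miR-433 and miR-136, were not detected on either arm. miR-433-3p had a mean brightness of 0.512 ± 2.37 (SD, 20 spots), and miR-136-5p 2.73 ± 3.93 (SD, 19 spots). By the flag, the hairpins of the RTL1 interval therefore split, with 3 detected on both arms and the others on none. In brightness the split was less clear. None of the 20 spots of miR-431-5p stood well above background, and the undetected miR-433-5p had a probe at 8.70.

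Outside RTL1, miR-665 had a total signal of 173 ± 11.1, the second in the cluster. Its 20 spots were all well above background, but their brightness ran from 212 to 1289, because 1 of its 4 probes was much brighter than the others. miR-370-3p, the product of the last upstream gene, had a total signal of 148 ± 10.7 and a mean brightness of 403 ± 78.4 (SD, 20 spots). Both its probes were bright, at 473 and 333, while miR-370-5p was not detected. miR-770-5p had a total signal of 25.4 ± 1.48 and miR-493-3p 24.0 ± 1.41. miR-493-5p had a mean brightness of -2.38 ± 1.59 (SD, 20 spots) and was not detected.

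The downstream stretch is the miR-379 to miR-656 array of genes, which in neurons is transcribed in response to activity. Its 27 detected miRNAs had a median total signal of 10.2, and 13 of them were under 10, against 426 of all 1448 detected human miRNAs. After miR-494-3p, the highest signals were those of miR-1193 with 126 ± 9.52, miR-134-5p with 83.2 ± 5.98 and miR-1185-1-3p with 75.5 ± 5.44. miR-134, a brain miRNA known to act in dendritic spines, had a mean brightness of 226 ± 17.1 (SD, 20 spots) on its 5p arm, and its 3p arm was not detected. Its probes had mean brightness 236 and 216, and all 20 spots were well above background.

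Lower in the order came miR-487b-3p with a total signal of 52.8 ± 4.03, miR-1185-2-3p with 34.6 ± 2.65 and miR-409-3p with 22.1 ± 1.85. miR-409-3p was among the most even signals of the cluster, with a mean brightness of 60.2 ± 4.71 (SD, 20 spots) and probe means of 60.9 and 59.4. miR-379-5p, from the first gene of the array, had a total signal of 11.3 ± 1.27, with probe means of 31.1 and 30.4. miR-411-5p, from the next gene, had a mean brightness of -2.50 ± 1.28 (SD, 20 spots) and was not detected. A change from signal to no signal between adjacent genes thus also occurred at the start of the array.

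At the dim end, signals lay near the limit of the array. A total signal leaves out probes not over 3 times their error, so for a dim miRNA it can rest on only some of its probes. The 5 lowest total signals of detected cluster miRNAs were those of miR-323a-5p (1.10 ± 0.363), miR-323b-5p (1.24 ± 0.369), miR-541-5p (1.38 ± 0.373), miR-758-3p (1.62 ± 0.384) and miR-668-3p (1.91 ± 0.401). Spots well above background numbered 0 of 20 for miR-323a-5p, 1 of 19 for miR-323b-5p, 0 of 20 for miR-541-5p, 1 of 19 for miR-758-3p and 2 of 20 for miR-668-3p. Weak signals of the same kind were given by miR-495-3p with a total of 2.58 ± 0.741, miR-539-5p with 4.12 ± 0.708 and miR-382-5p with 5.37 ± 1.05. Among all 38 detected cluster miRNAs, 18 had every spot well above background, 16 had fewer than 0.5 of their spots there, and 4 had none: miR-431-5p, miR-323a-5p, miR-382-5p and miR-541-5p. These counts were not set against all human miRNAs.

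The median total signal of the 38 was 12.6, against 23.1 for all 1448 detected human miRNAs. It was 17.7 for the detected others of the same range of numbers. Total signals leave out probes not over 3 times their error, whereas the log2 values that follow use every probe. On the log2 scale of spot brightness, after subtraction of the 75th percentile over detected probes, the cluster median was -2.95 and that of all detected human miRNAs -2.06. Total signals over 100 were given by miR-494-3p and 5 other cluster miRNAs, and 16 of the 38 were under 10. Among all 1448 detected human miRNAs, 290 were over 100 and 426 under 10.

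The undetected 55 lay at or near background. None had a spot well above it. Their mean brightness ran from -3.78 to 5.41 after subtraction of the local background, and 35 of the 55 were below 0. Among well-known cluster miRNAs that were not detected, the mean brightness was -2.85 ± 1.39 (SD, 18 spots) for miR-323a-3p, -0.966 ± 1.62 (SD, 20 spots) for miR-154-5p, -2.81 ± 1.28 (SD, 18 spots) for miR-377-3p and 1.62 ± 2.14 (SD, 20 spots) for miR-543. It was 0.685 ± 2.08 (SD, 20 spots) for miR-654-3p, -1.84 ± 1.90 (SD, 20 spots) for miR-889-3p and -1.85 ± 1.37 (SD, 18 spots) for miR-656-3p. These means lie within the range of the medians of the dimmer negative control probes.

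The nearest to a signal were miR-410-3p, with a mean brightness of 5.41 ± 2.53 (SD, 19 spots), and miR-485-5p, with 5.35 ± 5.20 (SD, 20 spots). For miR-485-5p a single probe reached 11.6, under the negative control level of 12.5 but above the 5.58 without the brightest control probe. miR-300 had a probe at 11.04 and miR-433-5p one at 8.70. An undetected miRNA may still be present below what 1 array of this kind can show.

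The arms of a hairpin come from the same transcript, so they give a view of the cluster in which transcription is shared. The 93 mature miRNAs come from 53 genes, of which 33 gave at least 1 detected product and 20 gave none. Both arms were on the array for 44 genes. Both were detected for 6 of these, the 5p arm alone for 8, the 3p arm alone for 15 and neither for 15. The 6 with both arms detected were those of miR-431, miR-127, miR-432, miR-758, miR-381 and miR-541. With arms paired by name alone, so that gene copies count once and arms of unlike names are left out, the cluster had 40 pairs, of which 6 (15%) were detected on both arms, 20 (50%) on 1 and 14 (35%) on neither. Of 770 such pairs outside the cluster, 32.3% were detected on both arms, 46.2% on 1 and 21.4% on neither. The share of single arms was thus near that outside the cluster. The lower share of pairs and the higher share with no detected arm stand beside the cluster's lower share of detected miRNAs, 40.9% against 57.4%.

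In 3 of the 6 detected pairs, those of miR-431, miR-758 and miR-541, an arm had no probe on which at least 0.5 of the spots stood well above background. miR-758-5p had a total signal of 20.7 ± 1.78 with all 20 spots well above background, whereas miR-758-3p, at 1.62, had 1. For miR-381 the total signals were 10.2 ± 1.25 on the 5p arm and 17.0 ± 1.75 on the 3p arm, and each came mostly from 1 of 2 probes, all of whose spots were well above background. For miR-541 they were 1.38 on the 5p arm and 5.16 ± 0.681 on the 3p arm. The pairs that met that criterion on both arms, with at least 1 probe each, were those of miR-127, miR-432 and miR-381. For miR-432-3p it was met by 1 of 4 probes, with 4 of 18 spots well above background. For each arm of miR-381 it was met by 1 of 2 probes. Only for miR-127 did every probe of both arms meet it.

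**Figure D2:**
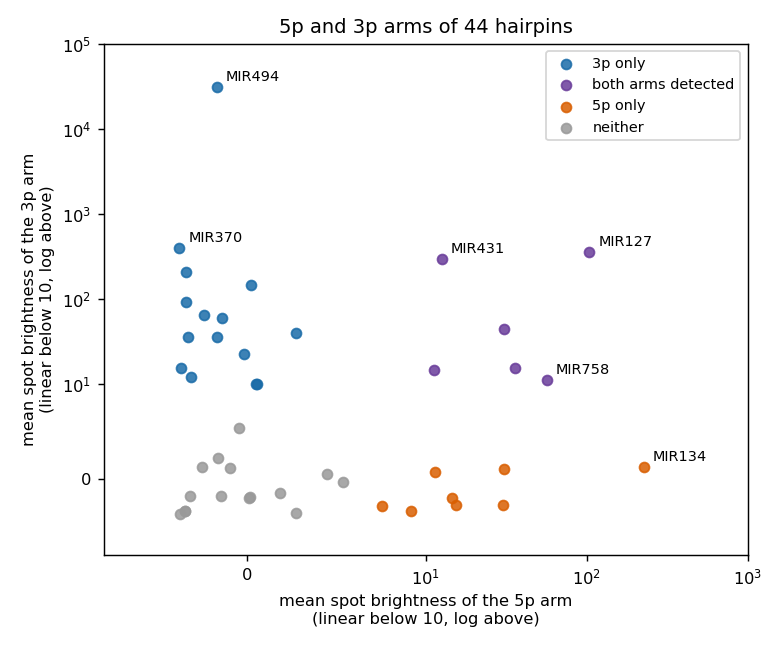
Mean spot brightness of the 5p arm (horizontal axis) and of the 3p arm (vertical axis) for the 44 hairpins with both arms on the array, both axes linear below 10 and logarithmic above. Each point is 1 hairpin, coloured by which arms were detected. Most bright points lie along one axis or the other, and the 6 hairpins with both arms detected lie between them.

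Counted over mature miRNAs, 20 of 42 3p arms (47.6%) and 15 of 43 5p arms (34.9%) of the cluster were detected. Outside the cluster the order was the other way round, with 49.5% of 3p arms and 61.8% of 5p arms. Among the outside miRNAs of the same range of numbers, 48.6% of 3p arms and 50% of 5p arms were detected. The cluster's 3p share was close to that of both outside groups, and its low share lay mainly on the 5p arms.

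Grouped by seed, the 92 sequences held 81 different seeds, and 10 seeds were shared, by 21 miRNAs. In 3 shared seeds every cluster miRNA was detected, in 5 none was, and in 2 they differed. Seeds shared by other human miRNAs were not counted, so these numbers are not shown to be particular to the cluster. The miRNAs of the fully detected seeds are miR-376a-3p with miR-376b-3p, miR-541-3p with miR-654-5p, and the 3p products of miR-1185-1 and miR-1185-2. The number of changed, added or lost bases between relatives is given as edits. miR-1185-1-3p and miR-1185-2-3p are 1 edit apart and had mean brightness 207 ± 17.8 (SD, 18 spots) and 94.1 ± 11.7 (SD, 20 spots).

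The miR-376 family, whose transcripts are known to be edited from adenosine to inosine in the brain, was detected on its 3p arms and not on its 5p arms. The total signals were 13.4 ± 1.38 for miR-376a-3p, 8.46 ± 1.16 for miR-376c-3p and 5.95 ± 1.08 for miR-376b-3p. miR-376a-3p is 2 edits from each of the others. Spots well above background numbered 20 of 20 for miR-376a-3p, 14 of 19 for miR-376c-3p and 8 of 18 for miR-376b-3p. All 3 were low, and their undetected 5p partners had mean brightness from -3.69 to -0.151.

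Other relatives separated. miR-381-3p and miR-300 have the same seed and are 3 edits apart. miR-381-3p had a mean brightness of 44.6 ± 32.1 (SD, 19 spots), and miR-300, not detected, had 2.95 ± 4.68 (SD, 19 spots). miR-487b-3p and miR-487a-3p are also 3 edits apart and have different seeds. miR-487b-3p had a mean brightness of 146 ± 45.3 (SD, 19 spots), whereas miR-487a-3p, not detected, had 2.18 ± 1.23 (SD, 16 spots). In these pairs one relative was detected and the other was not. The probes did not split as clearly for miR-381-3p and miR-300. Those of miR-381-3p had mean brightness 77.3 and 15.1, and the brightest of miR-300 had 11.04. In all, 18 cluster miRNAs had another miRNA of the array within 3 edits, and how much their probes bind each other's miRNA was not tested.

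Base composition differed between detected and undetected cluster miRNAs. The median share of G and C in the mature sequence was 52.2% for those detected and 43.5% for those not detected. None of 4 cluster miRNAs with under 30% was detected, 4 of 19 with 30 to under 40% (21.1%), 10 of 32 with 40 to under 50% (31.2%), 17 of 29 with 50 to under 60% (58.6%) and 6 of 8 with 60% or more. The same rise was seen in miRNAs outside the cluster, from 9.38% in the lowest class through 23.2%, 47.4% and 64.4% to 80.2% in the highest. In each class the cluster share was the lower of the 2, and the gap was widest at 40 to under 50%.

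**Figure D3:**
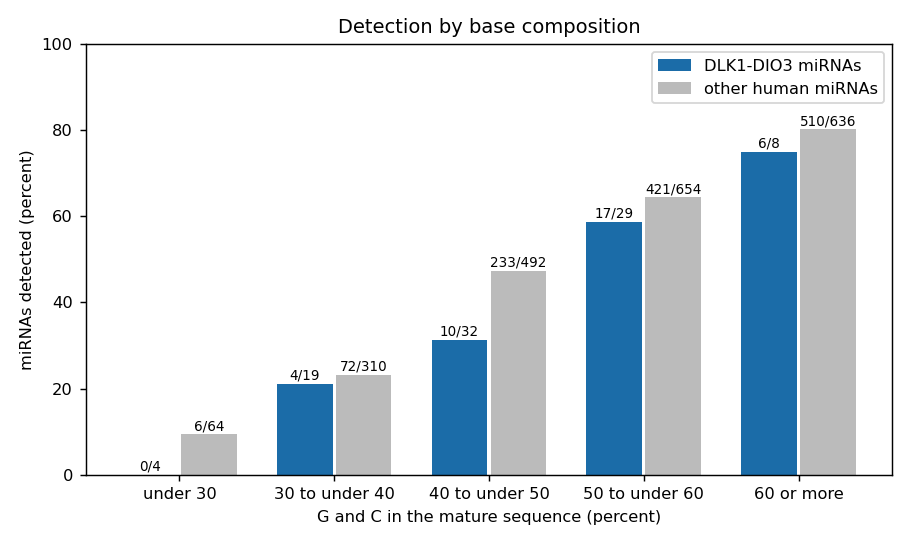
Percent of miRNAs detected (vertical axis) by the percent of G and C in the mature sequence (horizontal axis) for cluster miRNAs (blue) and other human miRNAs (grey), with detected over all miRNAs of the class above each bar. Bars of both groups rise from left to right, to 6 of 8 cluster miRNAs and 80.2% of the others in the last class.

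Had the cluster miRNAs been detected at the shares of the other human miRNAs in each class, 45.0 of the 92 with a sequence (48.9%) would have been detected, against 37 observed (40.2%). With the shares of the others of the same range of numbers it would have been 46.3 (50.3%). The gap to the observed count was not tested, and some classes held few cluster miRNAs. The stretches of the locus differed in composition as well, with a median of 54.5% G and C upstream and 45.5% downstream. All 10 detected upstream miRNAs had 50% or more. Whether composition had a part in detection, through the probes or the miRNAs, was not tested. miR-494-3p, the brightest, had 45.5% and so lay in a class in which most cluster miRNAs were not detected.

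Each of the 38 detected cluster miRNAs was read by 2 to 4 different probes, and these often disagreed. Every probe was above the negative control level for 22 of the 38 (57.9%), against 82.5% of all 1448 detected human miRNAs. For 16 of the 38 the brightest and dimmest probe differed by more than 1 on the log2 scale, with brightness below 1 set to 1. This count was not set against all human miRNAs, so it is not shown to be particular to the cluster. The SD between spots of 1 probe had a median of 0.15 on that scale, over the 30 that met the criterion of at least 0.5 of the spots well above background.

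Examples cover the bright and the dim end. miR-127-5p had probe means of 322.5 ± 9.68 and 19.7 ± 2.39 (SD, 5 spots each) at its extremes, which is 4.04 apart on the log2 scale. miR-665 had 1103 ± 174 and 235 ± 15.8 (SD, 5 spots each), 2.22 apart. For miR-377-5p, 1 probe gave 130 ± 65.5 (SD, 5 spots) while its other 3 gave -3.29 to -2.47, and none of the spots of those 3 was well above background. miR-432-3p showed the same, with 1 probe at 74.5 ± 1.61 (SD, 4 spots) and another at -2.17 ± 0.541 (SD, 4 spots). miR-544b, the miRNA placed on chromosome 3, had 1 probe at 42.3 ± 13.2 (SD, 10 spots) and the other at -2.36 ± 1.43 (SD, 9 spots). For miR-377-5p, miR-432-3p and miR-544b only 1 probe was above the negative control level. For miR-127-5p and miR-665, as for miR-494-3p, miR-127-3p, miR-370-3p, miR-431-3p and miR-134-5p, every probe was above it.

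**Figure D4:**
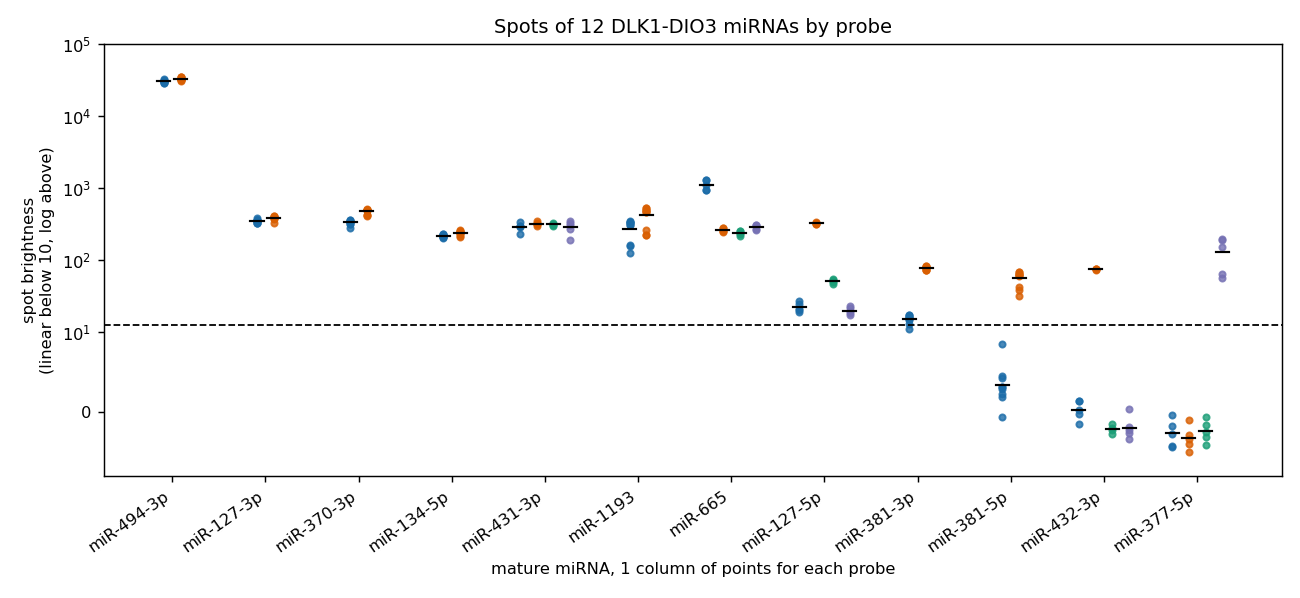
Brightness of single spots (vertical axis, linear below 10 and logarithmic above) for 12 cluster miRNAs (horizontal axis), with 1 column of points and 1 colour for each probe of a miRNA, black bars at the probe means, and a dashed line at the negative control level, 12.5. The probes of miR-494-3p to miR-431-3p lie close together, whereas from miR-665 to the right at least 1 probe stands apart. Between them, the spots of miR-1193 spread widely within each probe. For miR-381-5p, miR-432-3p and miR-377-5p a single probe lies above the dashed line.

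The authors' deposited table gives a log2 value for each miRNA of this array. All 55 undetected cluster miRNAs held its lowest value, 2.32, which is 5 on the linear scale. Of the 38 detected, 10 held the lowest value given to any detected miRNA, 2.33, and the highest was 14.48 for miR-494-3p. That lowest value was held by 183 of all 1448 detected human miRNAs. miR-665 had 7.36, miR-370-3p 7.06, miR-127-3p 6.85 and miR-1193 6.71 on that log2 scale. Differences among the dimmest cluster miRNAs are therefore not held in that table.

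For comparison, 29 of 48 mature miRNAs (60.4%) of the other large imprinted cluster, C19MC of the placenta, were detected. So were 10 of 20 of miR-302, miR-367, miR-371, miR-372 and miR-373, miRNAs known from pluripotent stem cells. Both shares lay near the 56.8% of all human miRNAs. Of the 814 other human miRNAs in the DLK1-DIO3 range of numbers, 50.2% were detected, which is below the C19MC share. The median total signals of the detected miRNAs of C19MC and of the stem cell list were 19.2 and 18.6. Both were somewhat above the 12.6 of the DLK1-DIO3 miRNAs, and no miRNA of either group was over 135.8. By G and C, 1 of 4 C19MC miRNAs with 30 to under 40% was detected, against 4 of 19 in the DLK1-DIO3 cluster. With 40 to under 50% it was 12 of 19 against 10 of 32, and with 50 to under 60% 13 of 20 against 17 of 29. The clusters were close in the first and the last of these classes and apart in the other.

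The array as a whole held 53144 spots, of which 50980 measured human miRNAs and 1860 the cluster miRNAs, 20 for each. Of the 1860, 65 spots on 44 cluster miRNAs were marked as outliers and left out. Of 6 miRNAs known from colon epithelium, 4 were detected: miR-141-3p with a total signal of 1112, miR-200c-3p with 29.5, miR-215-5p with 16.9 and miR-375 with 12.8, whereas miR-192-5p and miR-194-5p were not. Of the markers of other cells, 3 of 5 for blood, 2 of 3 for muscle, 2 of 4 for neurons and 1 of 4 for stroma were detected, together 8 of 16, near the 56.8% of all human miRNAs. Their summed total signals were 16.0, 12.9, 38.3 and 14.02, against 1171 for the colon list, most of which came from miR-141-3p alone. The part of other cells in the cluster's signals was not tested.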

How the data were processed

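The data are those of 1 array, assigned to the empty control vector by its labels. Its deposited scanner output gives spot intensity on a linear scale, from Agilent Feature Extraction 11.0.1.1, which also took off local background, called outliers among the spots and wrote the detection flags. The labels say that Cy3 was ligated to the miRNA itself, and the methods that double-stranded cDNA was labelled. The authors also deposited log2 values, quantile normalized in GeneSpring GX per the methods, and which arrays were normalized together is not given in the sources used here.

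Control and outlier spots were left out, except that all negative control spots entered the control level. For values on the log2 scale, brightness below 1 was set to 1, log2 values were averaged over spots and then probes, less the 75th percentile over detected probes. Other brightness values are linear means of spots. The cluster miRNAs and the lists were chosen with earlier results of these data known. Named with values were the 15 highest and 5 lowest total signals, a list of 29 well-known cluster miRNAs, undetected ones brighter than the negative controls, and hairpins with both arms detected. Others named are examples chosen after their values were seen. Alternatives covered the detection criterion, the control level, background correction (normexp of limma 3.58.1 in R 4.3.3, offset 50), scaling, outlier spots, signal and how probes were summarised. The normexp correction used median spot signals. Counting without the brightest negative control probe, and without the miRNA off chromosome 14, were added after the data were examined. The pairing of arms by name was also chosen then. Python 3.11.15, numpy 2.4.6 and pandas 2.3.3 were used, and the log2 summary was tested on simulated spots. The number of arrays, 1, limits the precision, and no p-value is given.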

Additional observations from a re-analysis of the deposited data

How the results depend on the processing

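The count of 38 detected cluster miRNAs was 25 when every spot of a probe had to be well above background, and the count of 27 in the downstream stretch was then 15. Over all human miRNAs, the count of 1448 was then 1168. Under the other detection criteria both cluster counts stayed within 1.5 times. The 37 cluster miRNAs brighter than the negative controls were 25 at a 2-fold margin, 30 with the mean over probes and 40 at the 95th percentile. The 6 hairpins with both arms detected were 3 with at least 0.5 of the spots well above background as criterion, and 3 with every spot. The median log2 brightness of detected cluster miRNAs, -2.95, was -1.74 after normexp correction, -1.16 relative to the percentile of all human miRNA probes, -2.40 with the brightest probe and -2.59 with total signals. For the named cluster miRNAs the median of -2.81 was -1.65, -1.02, -2.04 and -2.33 in the same order. The median of the cluster stayed below that of all detected human miRNAs in each, by -0.89 as reported and by -0.39 after normexp correction at the least. No paired analysis was possible because the data came from 1 array. Spots and probes describe error within that array, and variation between cultures was not measured.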

Other observations

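Among miRNAs that lie near the cluster on chromosome 14 and are not counted in it, miR-2392 and both arms of miR-1247 lie between DLK1 and DIO3. miR-2392 had a total signal of 481, above every cluster miRNA except miR-494-3p. miR-1247-3p had 138. miR-1247-5p had 2.41, with 0 of 16 spots well above background. Upstream of DLK1, miR-345-3p had 75.6, miR-345-5p 43.1 and miR-342-5p 18.9, whereas miR-342-3p was not detected. Beyond DIO3, miR-203a-3p, a miRNA known from epithelia, had 5.50, with 1 of 20 spots well above background. miR-203a-5p and both arms of miR-203b were not detected.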
